A study of Mus musculus with 2 samples.

Results

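The let-7 family of microRNAs (miRNAs) was examined in the embryonic kidney of the mouse. Its members were taken by gene name, as the 10 Mirlet7 genes, Mir98 included, that have a count among the 1973 miRNA genes of the deposited tables. Sequencing covered RNA of under 30 nt from total RNA of B6NCrl kidneys, collected from healthy embryos at 15.5 days of development. The design has 1 group and no treatment, so no condition was contrasted. Replicate 1 pooled the kidneys of 78 embryos and replicate 2 those of 62, with males and females mixed in each, and both are labelled as biological replicates. As each library is a pool of many embryos and of all cell types of the organ, neither differences between animals nor the cells that carry a miRNA can be read from it.

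A miRNA gene is transcribed into a hairpin, from which the enzymes Drosha and Dicer cut an arm of about the length of the reads, the mature miRNA. The arm is loaded on an Argonaute protein and pairs with messenger RNAs mainly through its seed, bases 2 to 8, so that genes sharing a seed share many targets. The let-7 miRNAs were found in Caenorhabditis elegans as regulators of developmental timing, and in mammals they repress growth-promoting messages such as Hmga2 and Lin28a. The LIN28 proteins in turn bind the loop of let-7 precursors and block their maturation. In the mouse kidney, LIN28 and let-7 are known to act on how long nephron progenitors persist.

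The mature 5p arms are shown because the copies that share an arm decide which let-7 genes can be counted apart. All 10 members matched a hairpin in the RefSeq miRNA table (GRCm38.p6, the mm10 assembly), and 9 have a 5p line of their own there. The exception is Mirlet7a-2, whose hairpin holds the let-7a-5p sequence. Capitals mark the seed, and sequences run 5′ to 3′.
let-7a-5p: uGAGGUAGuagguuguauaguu
let-7b-5p: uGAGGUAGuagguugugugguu
let-7c-5p: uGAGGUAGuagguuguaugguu
let-7d-5p: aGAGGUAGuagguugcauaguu
let-7f-5p: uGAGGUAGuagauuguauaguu
let-7g-5p: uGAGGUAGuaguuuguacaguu
let-7i-5p: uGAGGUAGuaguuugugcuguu
miR-98-5p: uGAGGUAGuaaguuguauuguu
The 10 genes thus encode 8 different 5p arms of 22 nt with 1 seed. With positions counted from 1 at the 5′ end of let-7a-5p, let-7c-5p differs from it by A19G and let-7f-5p by G12A. The arm of let-7b carries A17G and A19G, that of let-7d U1A and U16C, that of let-7g G12U and U18C, and that of miR-98 G11A and A19U. The farthest from let-7a-5p is let-7i-5p, with G12U, A17G, U18C and A19U, an identity of 81.8%. From let-7g-5p it differs at 2 positions. Beyond these arms and let-7e-5p, whose gene Mirlet7e has no count, the table lists the same seed for let-7k (gene Mir7k) and miR-1961. Both Mir7k and Mir1961 had 0 reads in either library and are not among the members.

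The copies fall into 2 classes. A set of 5 members has a sequence of their own, meaning that no stretch of 20 nt of the hairpin occurs in a miRNA gene elsewhere. These are Mirlet7b, Mirlet7d, Mirlet7g, Mirlet7i and Mir98. The other 5 are repeated copies: the hairpins of Mirlet7a-1 and Mirlet7a-2 hold the same 5p arm, as do Mirlet7c-1 and Mirlet7c-2, and Mirlet7f-2 shares its arm with Mirlet7f-1. A read of such an arm matches several loci. The authors' tables put reads of several loci on a line of their own, outside every gene, so the counts of the repeated copies can be too low by an unknown amount. The 3p arms separate some copies but not all, as these 4 show.
let-7a-1-3p: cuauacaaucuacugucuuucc
let-7a-2-3p: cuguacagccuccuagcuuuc
let-7c-1-3p: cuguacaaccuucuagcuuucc
let-7c-2-3p: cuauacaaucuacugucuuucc
The arms let-7a-1-3p and let-7c-2-3p are identical, so neither annotated arm of Mirlet7a-1 or of Mirlet7c-2 is particular to its hairpin. Past the 3′ end of the 5p arm, Mirlet7f-1 and Mirlet7f-2 differ from the first base on, after a common run of 22 nt. The let-7a copies and the let-7c copies have 1 more base in common, a run of 23 nt each. Each count is for a whole hairpin, and the files do not record which arm or length its reads had.

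The libraries held 7434182 reads (replicate 1) and 5863293 reads (replicate 2) on the gene's own strand, which are the totals for all values below, expressed as percent or as CPM, own-strand reads per 1000000. The upper limit for a gene with 0 reads, set at 3 reads, is 0.404 CPM in replicate 1 and 0.512 CPM in replicate 2. Such limits and all intervals cover counting error only. The libraries differed far beyond counting error (chi-square over degrees of freedom, 239) and were treated as separate samples. Kidney marker genes were present: all 15 listed miRNA genes of kidney epithelium had reads in both libraries and summed to 5.29% and 6.03% in replicates 1 and 2. The marker of liver, Mir122, had 319 and 628 CPM, and the 2 of red blood cells summed to 339 and 466 CPM. The 3 leukocyte markers summed to 619 and 700.1 CPM and the 3 of striated muscle to 1011 and 695 CPM. The 4 neural markers listed in the tables summed to 129 and 219 CPM, with Mir124a-1 and Mir9-2 at 0, and the 4 of pluripotent cells to 0.00250% and 0.00372%. The endothelial marker Mir126a had 4.97% and 4.78%, and the 5 Hox-cluster genes that mark trunk position summed to 26.1% and 22.6%. Of the neural markers 3 share 20 nt with a miRNA gene elsewhere, as do 2 pluripotent, 4 kidney epithelium and 2 Hox-cluster genes. Like the repeated let-7 copies, these can be counted too low, so a 0 among the neural markers need not mean absence.

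Together the let-7 genes took 12.9% of the own-strand reads in replicate 1 (956704 reads; 95% exact binomial interval 12.8% to 12.9%) and 14.3% in replicate 2 (839648 reads; 14.3% to 14.3%). Nearly all of this came from the 5 genes with a sequence of their own, which held 932455 and 819638 reads, or 97.5% and 97.6% of the family's counts. The repeated copies held 24249 and 20010 reads, and 84.4% and 75.1% of those lay in Mirlet7f-2. Reads of several loci numbered 4.08 and 3.84 for each let-7 read in replicates 1 and 2. If none of them came from let-7, the family's share of own-strand and multi-locus reads would be 8.44% and 9.24%. If all did, it would be 42.9% and 44.7%. The share of the family among these reads is thus known only between those values. Levels of single genes are less open to this loss for those with a sequence of their own, though only miRNA genes were searched for shared stretches. As the aligner is not given, the mismatches it allowed are not known, and let-7b-5p differs from let-7c-5p by 1 base.

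By the reads placed on a gene, Mirlet7g and Mirlet7i led the family at nearly the same level. Reads of several loci are not among these, so whether let-7a, let-7c or let-7f stood higher is not known. Mirlet7g lies in an intron of Wdr82, which encodes a subunit of histone methyltransferase complexes, on the plus strand at chr9:106178840-106178927. It had 394019 reads or 53001 CPM in replicate 1 and 310248 reads or 52914 CPM in replicate 2. The log2 ratio of replicate 1 over replicate 2 was 0.0024, with an interval of -0.0044 to 0.0092, so that on the scale of own-strand CPM no difference between the pools was detectable at this depth. That depended on the scaling. The log2 ratio was 0.13 (0.12 to 0.14) with TMM, edgeR's scaling by trimmed means, 0.16 (0.16 to 0.17) with DESeq2 size factors and 0.05 (0.04 to 0.05) with the most abundant gene, Mir10a, left out of the total, each above 0 beyond counting error. Mirlet7i, at chr10:122985640-122985724 on the minus strand, overlaps an exon of D630033A02Rik, annotated as a transcribed processed pseudogene. It had 356414 reads or 47943 CPM in replicate 1 and 339241 reads or 57858 CPM in replicate 2. The order of these genes changed between the pools: Mirlet7g had 1.11 times the reads of Mirlet7i in replicate 1 (1.10 to 1.11) and 0.915 times in replicate 2 (0.910 to 0.919). Their means of 52957 ± 61.8 and 52901 ± 7012 CPM (SD, n = 2 each) did not differ beyond the spread between pools. Both genes ranked among the 6 most abundant of all miRNA genes in each library, Mirlet7g at 4 and 5 and Mirlet7i at 6 and 3. Their nearest genes in mean level were Mir10b, from the Hoxd cluster, above at 65318 and 57839 CPM, and the endothelial Mir126a below at 49708 and 47805 CPM. On this scale the ranges of both overlapped that of Mirlet7i but not that of Mirlet7g.

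Next in order was Mirlet7d, with 97927 reads or 13173 CPM in replicate 1 and 99194 reads or 16918 CPM in replicate 2, at ranks 18 and 16. Mirlet7i exceeded it by 3.64 and 3.42 times in the same libraries, and the ranges of the genes over the pools did not overlap. The gene lies at chr13:48536012-48536114 on the minus strand, in an exon of the long non-coding RNA 6720427I07Rik. Around it in the order of mean CPM stood Mir99b above, at 15830 and 15531 CPM, and the epithelial Mir429 below, at 15017 and 12739 CPM, and the ranges of both overlapped that of Mirlet7d.

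Mir98, which is a let-7 by its seed though not by its name, followed. It had 63384 reads or 8526 CPM in replicate 1 and 50772 reads or 8659 CPM in replicate 2, at ranks 23 and 24. Mirlet7d exceeded it by 1.54 and 1.95 times, again with ranges apart. Mir98 lies in an intron of Huwe1, the gene of a large ubiquitin ligase, at chrX:151913214-151913321 on the plus strand. Its neighbours in level were Mir20a of the miR-17-92 cluster, at 9976 and 9173 CPM with no overlap, and Mir351, at 5638 and 9045 CPM, whose range enclosed that of Mir98.

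Mirlet7b was the lowest of the 5 genes with a sequence of their own. It had 20711 reads or 2786 CPM in replicate 1 and 20183 reads or 3442 CPM in replicate 2, at ranks 46 and 48. Mir98 exceeded it by 3.06 and 2.52 times. The gene overlaps an exon of the non-coding transcript Lncppara at chr15:85707319-85707403 on the plus strand. Beside it in level stood Mir127, an imprinted miRNA gene, at 2614 and 3866 CPM and Mir125a at 2301 and 3865 CPM, and both ranges enclosed the range of Mirlet7b.

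Of the repeated copies, Mirlet7f-2 stood far above the rest in reads placed on a gene. It had 20468 reads or 2753 CPM in replicate 1 and 15030 reads or 2563 CPM in replicate 2, below Mirlet7b by 1.01 and 1.34 times. By its ratio to Mirlet7a-1 it was 15.7 and 9.44 times higher. It lies in an intron of Huwe1 as well, at chrX:151912346-151912428 on the plus strand. Mirlet7a-1, at chr13:48538179-48538272 on the minus strand, had 1307 reads or 176 CPM in replicate 1 and 1592 reads or 272 CPM in replicate 2. Mirlet7a-2, at chr9:41536716-41536811 on the plus strand, had 1130 reads or 152 CPM and 1443 reads or 246 CPM. In each library these let-7a copies were close, at a ratio of 1.16 (1.07 to 1.25) and 1.10 (1.03 to 1.19). Mirlet7c-2, at chr15:85706603-85706697 on the plus strand, had 712 reads or 95.8 CPM in replicate 1 and 1100 reads or 188 CPM in replicate 2. Mirlet7c-1, at chr16:77599657-77599750 on the plus strand, had 632 reads or 85.0 CPM and 845 reads or 144 CPM, the lowest of the family in each library. The ranges of these 4 genes over the pools overlapped from each to the next. The part of the reads that could be placed can differ between repeated copies, so their order is one of counts and not of levels. The order of the whole family was the same in CPM per nucleotide of the 5p arm, since every 5p arm has 22 nt.

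**Figure D1:**
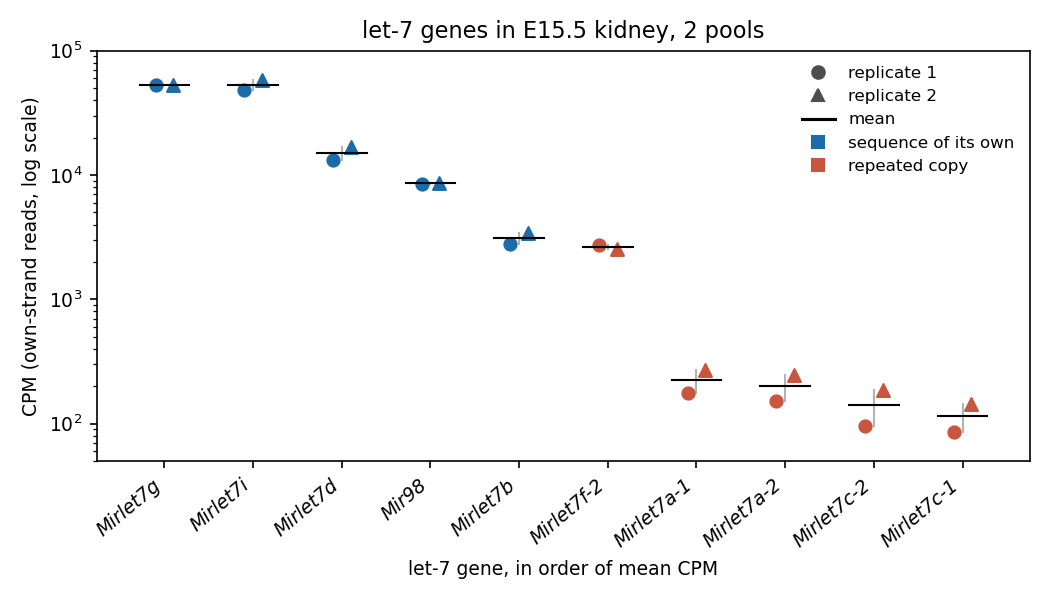
Own-strand CPM of each let-7 gene on a log scale, with circles for replicate 1, triangles for replicate 2 and a bar for their mean; blue genes have a sequence of their own and red genes are repeated copies. The blue genes and Mirlet7f-2 lie at 2563 CPM or more and the other 4 repeated copies at 272 CPM or less in each library.

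The make-up of the family was led by the same genes in both pools. Mirlet7g gave 41.2% of the family's reads in replicate 1 and 36.9% in replicate 2, and Mirlet7i gave 37.3% and 40.4%. Their sum was 78.4% and 77.4%. Mirlet7d gave 10.2% and 11.8%, Mir98 gave 6.63% and 6.05%, and Mirlet7b gave 2.16% and 2.40%. Mirlet7f-2 added 2.14% and 1.79%, while the let-7a and let-7c copies together added 0.395% and 0.593%. These are shares of the reads that could be placed on a gene, and the share of let-7a, let-7c and let-7f among all let-7 molecules cannot be taken from them.

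**Figure D2:**
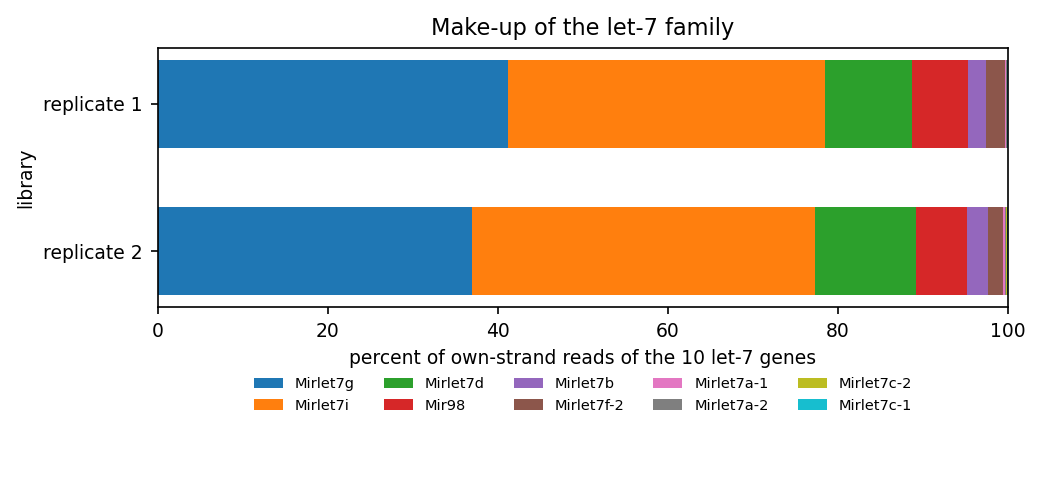
Percent of the own-strand reads of the 10 let-7 genes that each gene supplied, stacked from left to right in order of mean CPM, for replicate 1 (top) and replicate 2 (bottom). Mirlet7g and Mirlet7i fill 78.4% of the bar of replicate 1 and 77.4% of that of replicate 2.

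Of the 10 members, 8 lie in clusters with another let-7 gene or with genes of the miR-99/100 and miR-125 families, an arrangement in which the hairpins can be cut from a shared transcript. On chromosome 13, Mirlet7a-1, Mirlet7f-1 and Mirlet7d span 2.26 kb. Mirlet7d had 74.9 times the reads of Mirlet7a-1 in replicate 1 (interval 70.9 to 79.2) and 62.3 times in replicate 2 (59.3 to 65.5). On chromosome 15, Mirlet7c-2 and Mirlet7b lie 0.621 kb apart, and Mirlet7b had 29.1 times (26.99 to 31.4) and 18.3 times (17.3 to 19.5) the reads of its neighbour. On the X chromosome, Mirlet7f-2 and Mir98 lie 0.785 kb apart, and Mir98 had 3.10 times (3.05 to 3.15) and 3.38 times (3.32 to 3.44) the reads of Mirlet7f-2. In each of these clusters the gene with a sequence of its own had more reads than the repeated copy in both libraries. Scaling cancels in such ratios, but the reads of several loci that are missing from the repeated copy do not.

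The remaining clusters join a let-7 gene to members of 2 other families. Mirlet7c-1 lies 0.656 kb after Mir99a in an intron of Mir99ahg, and Mir99a, at 38236 and 37621 CPM, had 450 times (416 to 487) and 261 times (244 to 280) its reads. Mirlet7a-2 follows Mir100 by 5.21 kb in an intron of 3110039I08Rik, and Mir100, at 7316 and 6829 CPM, had 48.1 times (45.4 to 51.1) and 27.7 times (26.3 to 29.3) its reads. The last genes of these clusters, Mir125b-2 at 296 and 343 CPM and Mir125b-1 at 317 and 409 CPM, share sequence with each other and were low too. Mir125b-2 had 3.48 and 2.38 times the reads of Mirlet7c-1, and Mir125b-1 had 2.09 and 1.66 times those of Mirlet7a-2. In both clusters the only gene with a sequence of its own was thus the highest in each library.

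Mirlet7e lies between Mir99b and Mir125a on chromosome 17, and with Mirlet7f-1 it was not among the genes with a count. Reads on its strand can be seen only as reads opposite to Gm25927, a gene annotated across Mirlet7e on the other strand. They numbered 33064 in replicate 1 and 34535 in replicate 2, more than those of Mirlet7b in either library. Adding them to the family and to the total gave the family 14.0% ± 1.11 (SD, n = 2). Gm24111 lies in the same way across Mirlet7f-1, at chr13:48537825-48537921 on the plus strand, and had 914 and 852 reads opposite to it, against 1 and 8 on its own strand. Those reads were fewer than the reads of its sister copy Mirlet7f-2 in each library.

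**Figure D3:**
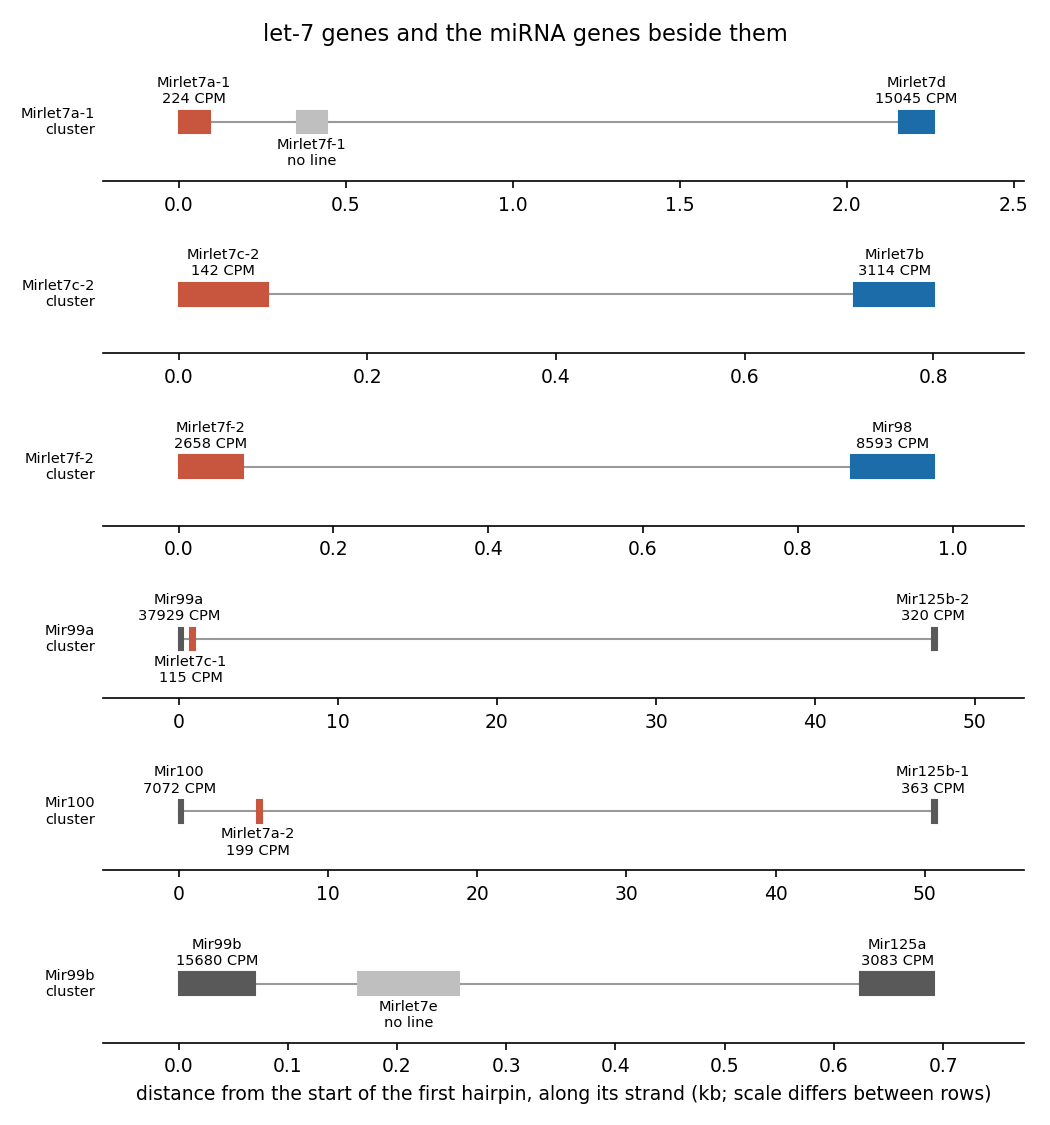
Maps of 6 clusters that hold let-7 genes, with distance along the transcribed strand in kb from the start of the first hairpin (the scale differs between rows) and the mean CPM of 2 libraries at each gene. Blue marks let-7 genes with a sequence of their own, red repeated let-7 copies, dark grey genes of other families and light grey let-7 genes that were not counted; in each map with a blue and a red gene the blue one has the higher CPM.

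The let-7 loops were searched for GGAG, the letters that the zinc fingers of LIN28 are known to bind. The search covered the RNA strand between the 5p and 3p arms only. The motif was found in the loops of 7 of the 10 members, and Mirlet7e and Mirlet7f-1 held it too. Among 50 other loops of the same range of length, 23 to 36 nt, 14% held it. These 4 hairpins are shown because, among the genes with a sequence of their own, they are the 2 highest whose loops hold the motif, in capitals, and the 2 whose loops do not.
Mirlet7g: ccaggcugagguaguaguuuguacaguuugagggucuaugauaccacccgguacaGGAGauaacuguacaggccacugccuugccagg
Mirlet7i: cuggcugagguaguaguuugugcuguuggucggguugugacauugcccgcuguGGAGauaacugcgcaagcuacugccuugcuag
Mirlet7b: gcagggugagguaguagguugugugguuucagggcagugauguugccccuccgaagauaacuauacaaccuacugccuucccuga
Mir98: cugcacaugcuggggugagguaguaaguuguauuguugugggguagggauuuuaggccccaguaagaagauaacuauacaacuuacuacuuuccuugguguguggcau
The motif ends 3 nt before the 3p arm in Mirlet7g and 4 nt before it in the other loops that hold it. Among the genes with a sequence of their own, the 3 with the motif (Mirlet7g, Mirlet7i and Mirlet7d) lay between 13173 and 57858 CPM, and the 2 without it (Mir98 and Mirlet7b) lay between 2786 and 8659 CPM. The ranges of those with the motif did not overlap the ranges of those without it. Not among these 5 is Mirlet7e, which holds the motif and has no count of its own. The 33064 and 34535 reads on its strand in replicates 1 and 2 lie among those of the genes without the motif. Mirlet7b had 20711 and 20183 reads and Mir98 had 63384 and 50772. The 5 genes are at different loci, and the part of the motif in their levels was not tested. Among the repeated copies, whose counts can be too low, Mirlet7a-1, Mirlet7a-2, Mirlet7c-1 and Mirlet7f-2 held the motif. They lay between 85.0 and 2753 CPM, below Mirlet7b and Mir98. Mirlet7c-2, a repeated copy at 95.8 and 188 CPM in replicates 1 and 2, also lacked the letters.

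Between the pools, no let-7 gene reached a difference of 2-fold. By a two-sided exact binomial test of the counts given the library totals, with Benjamini-Hochberg adjustment over 378 genes, 0 of 10 members were called at 0.05 and at least 2-fold, against 6.08% of all genes tested. At an unadjusted p under 0.05, 9 of the 10 differed, against 59.8% of all genes tested. The test covers counting error only, and it compares these libraries and not conditions. Without a fold limit 9 members were called at an adjusted p under 0.05, against 55.8% of all genes tested. On this scale the member not called was Mirlet7g (adjusted p = 0.597), and Mir98, at a log2 ratio of -0.02 for replicate 1 over replicate 2, was the least of the others (adjusted p = 0.0178). With TMM, DESeq2 size factors or Mir10a left out of the total, all 10 were called without a fold limit, Mirlet7g as higher in replicate 1, and Mir98 turned to 0.11, 0.14 and 0.02. In bulk tissue, fewer cells of a type and less RNA per cell cannot be told apart.

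The members were spread in their ratios. In Mirlet7i, Mirlet7b and Mirlet7d the log2 ratio was -0.27 (-0.28 to -0.26), -0.31 (-0.33 to -0.28) and -0.36 (-0.37 to -0.35), lower in replicate 1, with CPM in replicate 2 at 1.21, 1.24 and 1.28 times that in replicate 1. Mirlet7f-2 was at 0.10 (0.07 to 0.13). The lowest ratios were those of the 4 let-7a and let-7c copies: -0.63 for Mirlet7a-1, -0.70 for Mirlet7a-2, -0.76 for Mirlet7c-1 and -0.97 (-1.11 to -0.83) for Mirlet7c-2. These 4 were the members called when the fold limit was lowered to 1.5, where 15.9% of all genes passed and 14.3% passed as higher in replicate 2, like these. Mirlet7c-2 lay just inside the 2-fold limit, with CPM in replicate 2 at 1.96 times that in replicate 1.

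Across the family the median log2 ratio was -0.33, against -0.15 over the 378 genes tested. It was -0.27 over the 5 genes with a sequence of their own and -0.70 over the repeated copies. All 10 members lay within the central 95% of the 264 genes that averaged 100 reads or more, which ran from -1.07 to 0.52. The zero of this scale depends on the scaling: with TMM and DESeq2 size factors every log2 ratio moved up by 0.13 and 0.16. The members higher in replicate 1 were then 3 in number, with Mir98 added to Mirlet7g and Mirlet7f-2. Mir10a, the most abundant gene, moved the other way, at 167241 and 140739 CPM in replicates 1 and 2, and with it out of the total Mir98 was higher in replicate 1 as well. On the scale of own-strand CPM, the summed levels of the 9 marker lists differed between the pools beyond counting error too. Their log2 ratios were -0.98 for liver, -0.76 for neural, -0.57 for pluripotent, -0.46 for red blood cell, -0.19 for kidney epithelium and -0.18 for leukocyte markers, all lower in replicate 1. Those of striated muscle, at 0.54, of trunk position, at 0.21 and with Mir10a among them, and of endothelium, at 0.06, were higher in replicate 1. Single genes did not all follow these sums. In kidney epithelium 8 of 15 genes were higher in replicate 1 and 7 in replicate 2, with a median log2 ratio of 0.19. Of the neural genes tested, 1 was higher in replicate 1 and 1 in replicate 2, and of the 5 trunk genes 2 were higher in replicate 2. With TMM and DESeq2 size factors the sums move up by 0.13 and 0.16 too, close to the size of the kidney epithelium and leukocyte ratios. The part of the marker lists in the let-7 ratios was not tested.

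**Figure D4:**
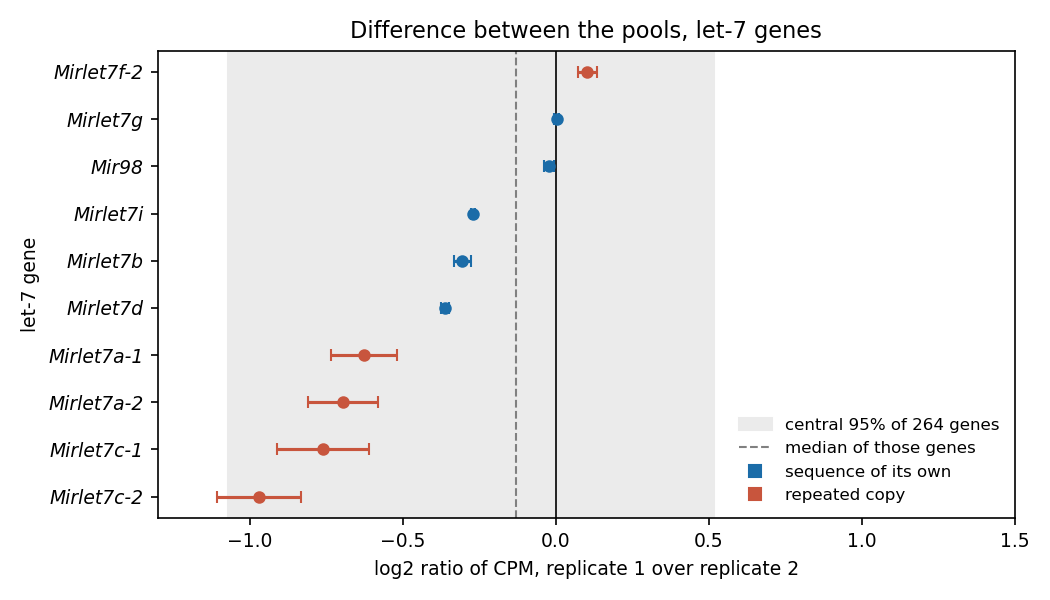
Log2 ratio of CPM, replicate 1 over replicate 2, for each let-7 gene with its 95% exact binomial interval; blue genes have a sequence of their own and red genes are repeated copies. The grey band is the central 95% of the 264 genes that averaged 100 reads or more, from -1.07 to 0.52, and the dashed line is their median of -0.13; all members lie within the band and the 4 let-7a and let-7c copies at its low side.

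Other families with repeated copies gave a measure of how far such sums moved between pools. The miR-30 family, whose members mark kidney tubules and podocytes, summed to 2.75% and 3.86% over 6 genes, of which 2 share sequence with another gene. The miR-181 family summed to 0.967% and 0.909% over 6 genes, of which 4 do. The log2 ratio of the summed reads was -0.15 (-0.16 to -0.15) for let-7, -0.49 (-0.50 to -0.48) for miR-30 and 0.09 (0.07 to 0.10) for miR-181. Sums depend on the scaling as well: TMM and DESeq2 size factors move each ratio up by 0.13 and 0.16, about the size of the let-7 ratio. The miR-99/100 and miR-125 genes that lie in the let-7 clusters summed to 6.43% and 6.46%, at a log2 ratio of -0.0068 (-0.0129 to -0.0006), and 0 of their 6 members were called at 2-fold. Within that list Mir125a was at -0.75 (-0.78 to -0.72), while Mir99b in the same cluster was at 0.03 (0.01 to 0.04).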

How the data were processed

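Per the labels, small RNA was sequenced from 2 pools of kidneys of 1 group. Each deposited table gives raw read counts per miRNA gene for either strand, the gene's own strand and the opposite strand; the tables have no header, and the notes deposited beside them name the mm10 assembly and the genome annotation M4. The aligner is not given in the sources used here, nor is the counter. Unmapped reads (17.7% and 19.7%), reads of several loci (27.1% and 26.6%) and reads in no gene (2.57% and 4.05%) have lines of their own and were kept out of library sizes.

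Own-strand counts were scaled to CPM over all miRNA genes. Identifiers were matched without version to GENCODE M21, which named 1894 of 1973 genes; the 79 others held 5 reads. The sequences of arms, hairpins and loops came from RefSeq (GRCm38.p6). Repeated copies share 20 nt with a miRNA gene elsewhere on either strand, by the miRNA transcript sequences of GENCODE M21. Log2 ratios used a pseudocount of 0.5, and genes averaging 10 reads or more were tested by the exact binomial test. It was tried on simulated counts with counting error only, so that trial does not cover the larger spread between these libraries. With 1 group, edgeR 4.0.16 (TMM) and DESeq2 1.42.0 (size factors), in R 4.3.3, gave scalings only. Python 3.11.15, scipy 1.17.1, pandas 2.3.3, numpy 2.4.6 and matplotlib 3.10.9 were used.

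The members, gene lists and tests were chosen with earlier results of these data known. Named genes are the members, the miR-99/100 and miR-125 genes of the let-7 clusters, the neighbours in level of the genes with a sequence of their own, and Mir10a; Gm25927 was named for its opposite-strand reads, and Gm24111, Mir7k and Mir1961 were added after their values were seen. Alternatives were other totals, strands, scalings, filters, fold limits and pseudocounts, and each replicate left out.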

Additional observations from a re-analysis of the deposited data

Results flagged for a closer look

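These values are reads on the strand that the comparisons did not use, above the limit of 3 reads; there is no control sample. Opposite to Gm25927, which lies across Mirlet7e, there were 33064 reads in replicate 1 and 34535 in replicate 2. Opposite to Gm24111, which lies across Mirlet7f-1, there were 914 and 852. Opposite to Mirlet7b there were 16 and 19, against 20711 and 20183 reads on its own strand. Where these reads came from was not tested.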

How the results depend on the processing

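With all reads of the file as the total, the share of the family, of the 5 genes with a sequence of their own and of the repeated copies was 6.79%, 6.62% and 0.167%. With multi-locus reads added to the total it was 8.84%, 8.62% and 0.217%, and without Mir10a in the total 16.1%, 15.7% and 0.394%; these changes follow from the totals. Both strands summed, genes sharing sequence left out (which leaves no repeated copy, so no value for them) and the reads over Mirlet7e and Mirlet7f-1 added (the step for Mirlet7f-1 was chosen after seeing the data) moved the shares by less than 1 SD. Leaving out a replicate gave 12.9% to 14.3%, 12.5% to 13.98% and 0.326% to 0.341%. Lowering the fold limit to 1.5 called 4 members and dropping it called 9, while TMM, DESeq2 size factors, a mean count of at least 100 and no filter called 0, where 5.82%, 5.82%, 3.41% and 4.8% of all genes tested were called, so that 0 of 10 is near the share of all genes. Without a fold limit, TMM, DESeq2 size factors and the total without Mir10a called 10 members, against 58.2%, 59.0% and 56.6% of all genes (chosen after seeing the data). The median log2 ratio was -0.21 with TMM, -0.17 with DESeq2 size factors, -0.29 without Mir10a, -0.27 for the 5 genes with a sequence of their own, -0.70 for the repeated copies and -0.18 with the sum of the 5 genes as the total. The values for the repeated copies and for the sum of the 5 genes were chosen after seeing the data. The ratio of Mirlet7g to Mirlet7i was 0.915 to 1.11 with a replicate left out. Of 40 log2 ratios of single genes under 4 alternatives, 24 moved outside their interval. No paired analysis was possible because there is only 1 group. With 2 pools the SD is itself poorly known.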
